A study of Mus musculus with 6 samples.

Results

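The 10 genes described here, of calcium release, entry, pumping and decoding, were measured in germinal vesicle (GV) oocytes, the fully grown oocytes that are still arrested in meiotic prophase. They were chosen by name (*Itpr1*, *Itpr2*, *Cacna1h*, *Trpm7*, *Trpv3*, *Atp2a2*, *Atp2b1*, *Stim1*, *Orai1* and *Camk2g*) and all 10 were found among the 17577 genes listed for the 6 libraries. Of the libraries, 3 came from Bnc1tr/tr females, which carry a truncated basonuclin 1 in every cell on both alleles, and 3 came from wild type (WT) females. All mice were C57BL/6 J and 12 weeks old, and the methods of the study describe collection from antral follicles after PMSG, a gonadotropin that drives follicle growth. Each cDNA was made by a modified Smart-seq2 procedure, which the methods describe for a single oocyte, and the labels do not say whether the libraries of a group came from separate animals. A figure legend of the study names 3 biological replicates per group, run in duplicate, and does not say whether a replicate was an animal. The p-values therefore measure the spread between these libraries, of which an unknown part may be technical.

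At fertilization, a sperm factor raises inositol trisphosphate (IP3) in the egg, and IP3 receptors open the endoplasmic reticulum, the calcium store. The calcium rises repeat as waves, because pumps refill the store and channels in the plasma membrane let calcium back in. Calmodulin-dependent kinase reads the rises and releases the egg from meiotic arrest. A GV oocyte does not yet respond to sperm in this way, but it stores much of the RNA and protein that the egg will use.

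Values are FPKM, that is, fragment counts divided by transcript length in kilobases and by the M fragments mapped, so levels of different genes are compared per length. An FPKM value is a share of its library, and a change in the total RNA of an oocyte cannot be told apart from a change in the share of a gene. The FPKM totals ran from 657550 to 724550 per library. The steps of the low values gave an estimated depth of 13.06 to 21.4 M fragments, at which 3 fragments on a transcript of 1 kb are worth 0.14 to 0.23 FPKM. *Bnc1* itself, the mutated gene, was at 9.04, 6.51 and 5.83 FPKM in Bnc1tr/tr and at 13.17, 12.54 and 16.23 FPKM in WT, a log2 fold change of -0.89 on log2(FPKM + 1) with limma (adjusted p = 0.00895). All 12 oocyte markers, such as *Gdf9*, *Zp3* and *Dppa3*, were present in all 6 libraries. By the thresholds given below, 2 of the 12 were lower in Bnc1tr/tr (*Zp2* and *Nlrp5*, log2 fold changes of -0.74 and -0.62). Of all tested genes 7.68% were lower. None of the 12 was called higher, against 24.1% of all tested genes. The call of *Zp2* depended on single libraries, as given below. Markers of immune cells were also present: *Lyz2*, *Tyrobp*, *Fcer1g* and *Cd52* were found in Bnc1tr/tr replicates 1 and 2 and were at 0 FPKM in Bnc1tr/tr replicate 3 and in all 3 WT libraries.

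Of the 10 genes, *Trpv3* and *Atp2b1* were higher in Bnc1tr/tr oocytes and no gene was lower. A gene was called where the adjusted p of limma was under 0.05 and the absolute log2 fold change was over 0.5, among genes whose mean over the 6 libraries reached 1 FPKM. Of the 10 genes 9 were tested, which left out *Stim1*. The count of 2 of 9 called stands beside 31.8% of all 10560 tested genes, and the 2 of 9 called higher beside 24.1%. None of the 9 was called lower, against 7.68% of all tested genes. At an unadjusted p under 0.05 by limma the same 2 of 9 genes passed, against 4525 of all 10560 tested genes. The groups did not overlap for 3 of the 9 genes (*Trpv3*, *Atp2b1* and *Atp2a2*), against 46.8% of all tested genes. These shares are no higher than the background, so the count says nothing particular about the list. The median over all tested genes was 0.15 in log2 fold change, and 7 of the 9 genes lay between -0.26 and 0.19.

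**Figure D1:**
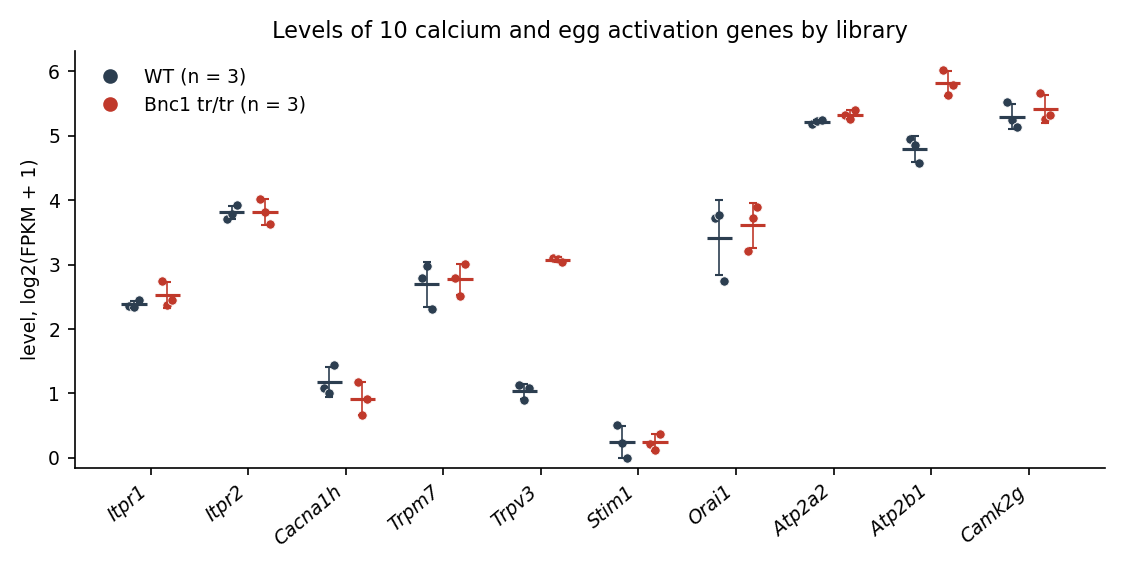
Levels of the 10 genes in each library, as log2(FPKM + 1), for WT (dark) and Bnc1tr/tr (red). Points are libraries, horizontal bars are group means and error bars are 1 SD (n = 3). *Trpv3* and *Atp2b1* stand apart between the groups, *Atp2a2* does so by a small margin, and the other 7 genes overlap.

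Sequences at the annotated starts of 3 of the genes are shown, *Trpv3* and *Atp2b1* because they were called and *Orai1* because it was not. The RefSeq annotation (GRCm38.p6) held windows of 250 bases before an annotated start for 6 of the 10 genes, with 2 windows for *Atp2b1*. Such a start need not be the outer end of the gene. The windows of *Trpv3* and *Itpr2* and the first of *Atp2b1* ran partly into the gene, and that of *Stim1* lay inside it. *Trpv3* lies at chr11:73267489-73300368 on the plus strand, *Atp2b1* at chr10:98914630-99026143 on the plus strand, and *Orai1*, which was not called, at chr5:123015074-123030452 on the plus strand. The printed stretches are chr11:73267270-73267387 for *Trpv3*, which is the part of its window before the first annotated exon, chr10:98914902-98915151 for the second window of *Atp2b1*, which lies inside the gene, before its second RefSeq start, and overlaps no annotated exon of the gene, and chr5:123014824-123015073 for *Orai1*. All are on the plus strand, 5′ to 3′, and capitals mark CG dinucleotides.
Trpv3: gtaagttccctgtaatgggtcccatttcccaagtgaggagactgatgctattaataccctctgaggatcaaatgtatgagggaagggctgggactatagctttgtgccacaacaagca
Atp2b1: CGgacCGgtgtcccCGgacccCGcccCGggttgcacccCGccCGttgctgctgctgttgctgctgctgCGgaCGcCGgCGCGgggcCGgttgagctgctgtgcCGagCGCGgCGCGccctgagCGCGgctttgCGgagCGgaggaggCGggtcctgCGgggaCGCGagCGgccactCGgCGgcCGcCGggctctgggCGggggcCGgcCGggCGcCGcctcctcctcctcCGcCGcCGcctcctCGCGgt
Orai1: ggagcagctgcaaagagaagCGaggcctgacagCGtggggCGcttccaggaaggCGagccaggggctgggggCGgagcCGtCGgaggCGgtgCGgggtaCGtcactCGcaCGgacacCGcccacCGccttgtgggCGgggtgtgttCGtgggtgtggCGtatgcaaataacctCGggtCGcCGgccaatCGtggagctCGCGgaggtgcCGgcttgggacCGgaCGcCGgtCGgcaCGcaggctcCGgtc
The stretch of *Trpv3* held no CG dinucleotide in 118 bases, that of *Atp2b1* held 41 in 250 bases and that of *Orai1* held 30. Over the whole window of 250 bases *Trpv3* had 3 CG dinucleotides and 54.4% GC, and the median of 32851 mouse windows was 6. The windows of *Itpr2*, *Trpm7* and *Stim1* held 22, 26 and 31 CG dinucleotides. The windows of *Trpv3* and *Atp2b1* were thus unlike each other, poor and rich in CG. The letters TATAAA, on either strand, were in neither the whole *Trpv3* window nor the printed *Atp2b1* window, and 12.4% of all windows held them. The same was true of the letters CCAAT (33.8% of all windows) and of the letters GGAATG (12.6% of all windows). GGGCGG was found 3 times in the printed *Atp2b1* window and not in that of *Trpv3*, with 32.7% of all windows holding it. CANNTG was found 4 times in the *Trpv3* window and not in that of *Atp2b1*, with 66.2% of all windows holding it. The window of *Orai1*, which was not called, held GGGCGG 3 times, CCAAT 1 time and CANNTG 1 time, and neither TATAAA nor GGAATG. These are matches of letters only.

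In WT oocytes the highest level per length among the 10 genes was that of *Camk2g* (mean 38.6 FPKM), whose range overlapped that of *Atp2a2* (36.3 FPKM). Below them, without overlap, came *Atp2b1* (26.9 FPKM) and then *Itpr2* (13.04 FPKM), whose range overlapped that of *Orai1* (10.2 FPKM). The ranges of *Orai1* and *Trpm7* (5.58 FPKM) and of *Trpm7* and *Itpr1* (4.22 FPKM) overlapped as well. *Cacna1h* (1.29 FPKM) and *Trpv3* (1.05 FPKM) lay close together, and *Stim1* was lowest (0.197 FPKM). In Bnc1tr/tr oocytes *Atp2b1* had the highest mean of the 10 (55.6 FPKM), with a range that overlapped that of *Camk2g*, and *Trpv3* moved from the ninth place to the sixth, above *Trpm7* and *Itpr1*. The other genes kept their order.

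The IP3 receptors are the release channels of the store, and type 1, encoded by *Itpr1*, is the form known for calcium waves in mouse eggs. *Itpr1* was at 5.73, 4.20 and 4.47 FPKM in Bnc1tr/tr and at 4.12, 4.09 and 4.45 FPKM in WT. The groups overlapped, and the log2 fold change was 0.14 with a 95% interval of -0.24 to 0.52 (limma, adjusted p = 0.555). *Itpr2*, the type 2 receptor, was at 15.23, 13.03 and 11.33 FPKM in Bnc1tr/tr and at 12.11, 12.82 and 14.19 FPKM in WT. The highest and the lowest library were both Bnc1tr/tr, and the log2 fold change was 0.01, with an interval of -0.38 to 0.40 (adjusted p = 0.973). Per length, *Itpr2* exceeded *Itpr1* in each of the 6 libraries. The cDNA was primed at the poly(A) tail and both transcripts are long, and the effect of coverage along them was not tested. *Itpr3*, the other receptor gene, was at no more than 0.21 FPKM in any library.

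*Cacna1h* encodes the T-type calcium channel CaV3.2, which is known in mouse oocytes for filling the store during maturation. It was at 1.26, 0.59 and 0.89 FPKM in Bnc1tr/tr and at 1.12, 1.01 and 1.73 FPKM in WT. The lowest 2 values were Bnc1tr/tr and the highest was WT, but the groups overlapped, and the log2 fold change was -0.26, with an interval of -0.71 to 0.19 (limma, adjusted p = 0.360). After quantile normalization of the libraries it was -0.69 and passed the test (adjusted p = 0.0282), the only one of 15 alternatives in which *Cacna1h* was called. The other T-type genes, *Cacna1g* and *Cacna1i*, were at no more than 0.31 and 0.33 FPKM.

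*Trpm7* encodes a channel with a kinase domain that passes calcium and magnesium and is known for calcium entry after fertilization in the mouse. It was at 5.93, 4.73 and 7.02 FPKM in Bnc1tr/tr and at 5.90, 6.89 and 3.95 FPKM in WT, and the groups overlapped throughout. The log2 fold change was 0.08, with an interval of -0.42 to 0.58 (limma, adjusted p = 0.817). *Trpm6*, its closest relative and a magnesium channel known from kidney and gut, was at 3.39, 2.99 and 2.89 FPKM in Bnc1tr/tr and at 0.60, 0.50 and 0.24 FPKM in WT. The groups of *Trpm6* were far apart, with a log2 fold change of 1.51 (SE 0.169, adjusted p = 0.000228). *Trpm6* remained below *Trpm7* per length in all 6 libraries.

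*Trpv3* encodes a channel of the plasma membrane that is known in skin and, in mouse eggs, as the route by which strontium enters when it is used to activate eggs without sperm. It was at 7.62, 7.48 and 7.19 FPKM in Bnc1tr/tr and at 1.18, 0.87 and 1.11 FPKM in WT. The lowest Bnc1tr/tr library lay above the highest WT library by a wide margin, and the libraries of each group lay close together. The means were 7.43 ± 0.219 FPKM (SD, n = 3) and 1.05 ± 0.163 FPKM (SD, n = 3), a ratio of 7.06. On log2(FPKM + 1), which understates the change of low genes, the log2 fold change was 2.04 (SE 0.156, interval 1.69 to 2.39, limma, adjusted p = 2.62e-05). It ranked 409th among all tested genes by its increase. *Trpv3* was called in each of the 15 alternatives, with log2 fold changes of 1.65 to 2.72.

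*Stim1* encodes the calcium sensor of the store and *Orai1* the channel that it opens in the plasma membrane. *Stim1* was at 0.16, 0.09 and 0.30 FPKM in Bnc1tr/tr and at 0.42, 0.17 and 0.00 FPKM in WT. At the estimated depths these levels stand for about 0 to 26 fragments per library. The groups overlapped, and in the fit without the minimum level *Stim1* was not called (limma, adjusted p = 0.984). *Orai1* was at 8.28, 12.22 and 13.79 FPKM in Bnc1tr/tr and at 12.26, 12.68 and 5.73 FPKM in WT. Its spread came from 1 low library in each group, and the log2 fold change of 0.19 had the widest interval of the 9 tested genes, -0.49 to 0.87 (limma, adjusted p = 0.671).

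*Stim2*, the other store sensor of the family, was the abundant form in these oocytes. It was at 33.71, 36.52 and 40.88 FPKM in Bnc1tr/tr and at 13.91, 15.04 and 13.18 FPKM in WT, and it exceeded *Stim1* in each library. The log2 fold change of *Stim2* was 1.34 (SE 0.161, limma, adjusted p = 0.000332), and it was called in each of the 15 alternatives (1.07 to 1.48). Among the channel genes *Orai2* was at no more than 0.07 FPKM. *Orai3* was at 2.51, 0.85 and 1.10 FPKM in Bnc1tr/tr and at 0.48, 0.43 and 0.22 FPKM in WT, without overlap, but its mean over all libraries was below the minimum for testing.

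**Figure D2:**
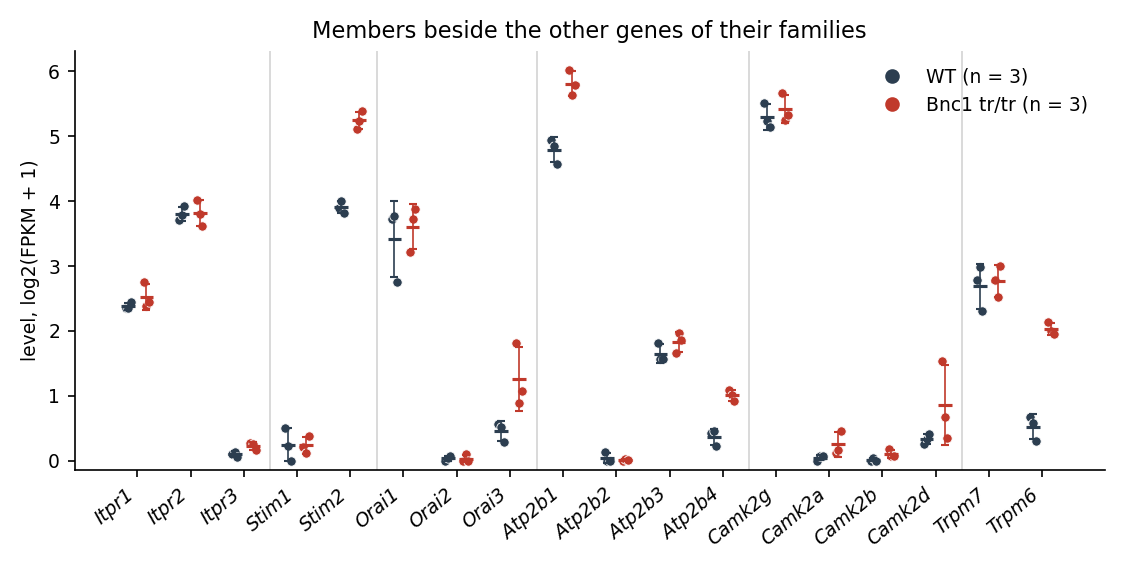
Levels of 7 of the genes beside the other genes of their families, as log2(FPKM + 1), for WT (dark) and Bnc1tr/tr (red). Points are libraries, horizontal bars are group means and error bars are 1 SD (n = 3), and grey lines separate the families. *Stim2* lies far above *Stim1*, and *Stim2*, *Atp2b1* and *Trpm6* are higher in all 3 Bnc1tr/tr libraries than in any WT library. So are *Itpr3*, *Orai3*, *Atp2b4*, *Camk2a* and *Camk2b*, at levels below the minimum for testing. The groups did not overlap for 46.8% of all tested genes.

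*Atp2a2* encodes SERCA2, the pump that refills the endoplasmic reticulum. It was at 38.94, 37.23 and 41.21 FPKM in Bnc1tr/tr and at 35.45, 36.43 and 36.96 FPKM in WT. The groups did not overlap, but the nearest libraries of the 2 groups were 37.23 and 36.96 FPKM, and the log2 fold change was 0.11, with an interval of -0.24 to 0.45 (limma, adjusted p = 0.638). *Atp2a3*, the SERCA3 gene, was at 0 FPKM in 5 of the 6 libraries.

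*Atp2b1* encodes PMCA1, the pump that removes calcium through the plasma membrane. It was at 63.76, 48.76 and 54.33 FPKM in Bnc1tr/tr and at 29.86, 27.98 and 22.80 FPKM in WT. Each Bnc1tr/tr library lay above each WT library, with means of 55.6 ± 7.58 FPKM (SD, n = 3) and 26.9 ± 3.66 FPKM (SD, n = 3) and a ratio of 2.07. The log2 fold change was 1.02 (SE 0.182, interval 0.61 to 1.43, limma, adjusted p = 0.00291). It was called in 14 of the 15 alternatives, with log2 fold changes of 0.75 to 1.11. The exception, chosen after seeing the data, kept only Bnc1tr/tr replicate 3 in its group, and there the log2 fold change was 0.998 with an adjusted p of 0.0854 by limma.

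In the same family, *Atp2b3* was at 2.16, 2.91 and 2.63 FPKM in Bnc1tr/tr and at 2.53, 1.98 and 1.95 FPKM in WT, with overlap (log2 fold change 0.18, limma, adjusted p = 0.464). *Atp2b4* was at 1.12, 1.02 and 0.89 FPKM in Bnc1tr/tr and at 0.34, 0.37 and 0.17 FPKM in WT, without overlap and below the minimum for testing. In the fit without the minimum level it was called higher (log2 fold change 0.64, limma, adjusted p = 0.00843). *Atp2b2* was at no more than 0.10 FPKM. *Atp2b1* was thus the plasma membrane pump gene with the highest level in all 6 libraries.

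*Camk2g* encodes the gamma form of calmodulin-dependent kinase II, the form known for releasing mouse eggs from metaphase arrest. It was at 49.63, 37.31 and 39.04 FPKM in Bnc1tr/tr and at 44.81, 36.70 and 34.19 FPKM in WT. The groups overlapped, and the log2 fold change was 0.12, with an interval of -0.30 to 0.54 (limma, adjusted p = 0.672). *Camk2a* and *Camk2b* were at no more than 0.38 and 0.13 FPKM. *Camk2d* reached 1.91 FPKM in Bnc1tr/tr replicate 1 and was at or below 0.60 FPKM in the other libraries.

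**Figure D3:**
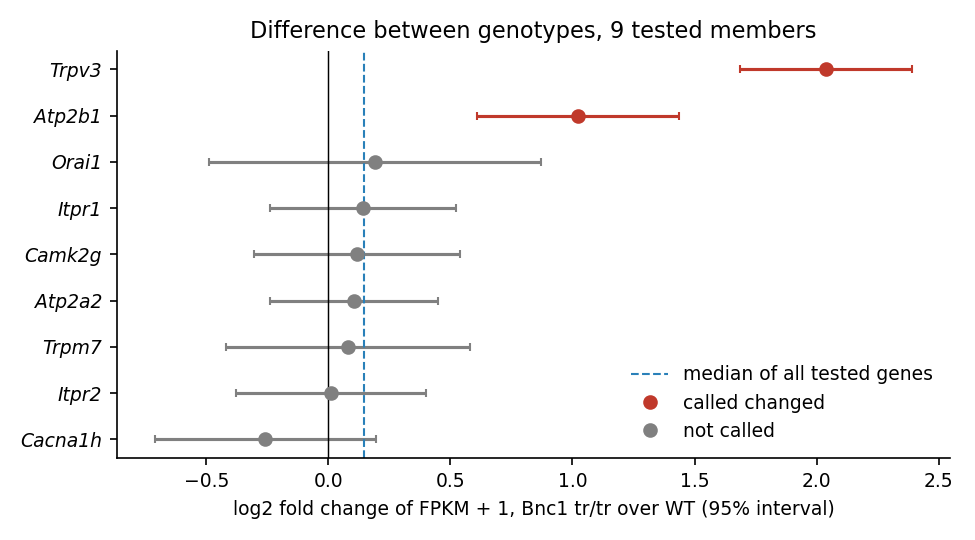
Log2 fold change of FPKM + 1, Bnc1tr/tr over WT, for the 9 tested genes, with 95% intervals from limma. Called genes are red, the dashed line is the median of all tested genes (0.15), and only the intervals of *Trpv3* and *Atp2b1* lie wholly above that line.

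A small log2 fold change depends on how the libraries are scaled. The median over all tested genes, in log2 fold change, was 0.15 on FPKM as deposited and -0.09 with upper-quartile scaling. It was -0.05 when libraries were scaled by the median ratio and -0.09 with quantile normalization. Of all calls 75.9% were higher as deposited, and 50.8%, 56.0% and 48.0% under these 3 scalings. *Itpr1*, *Itpr2*, *Trpm7*, *Atp2a2* and *Orai1* were below 0 under each of these 3 scalings, with no call. *Camk2g* was below 0 under upper-quartile and median-ratio scaling. Relative to the median, the difference was 1.89 for *Trpv3*, 0.88 for *Atp2b1* and -0.40 for *Cacna1h*, and between -0.14 and 0.05 for the other 6 genes.

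**Figure D4:**
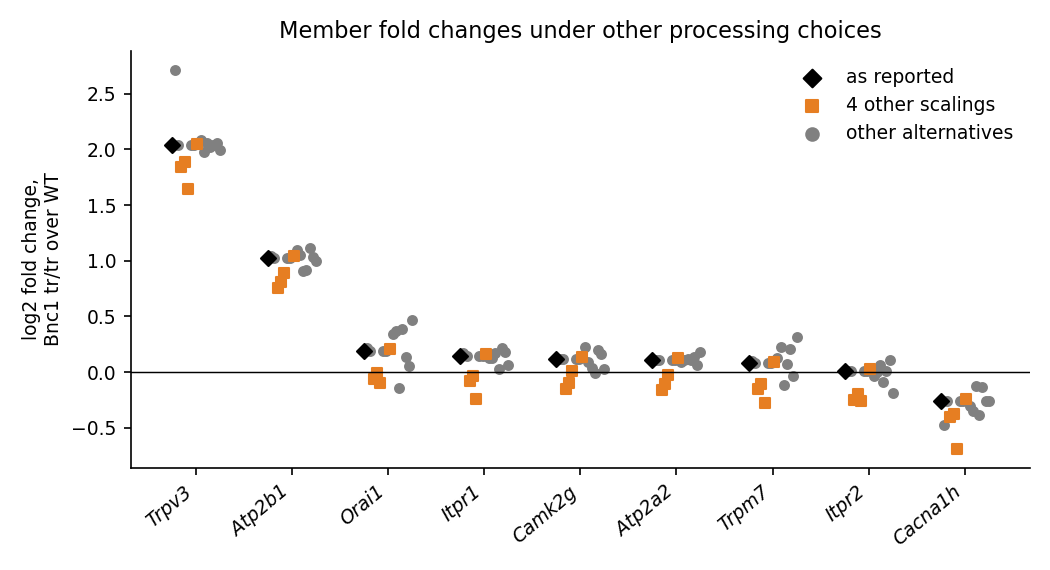
Log2 fold changes of the 9 tested genes as reported (black diamonds), under 4 other scalings of the libraries (orange squares) and under the other alternatives (grey circles). *Trpv3* and *Atp2b1* stay above 0 throughout, *Cacna1h* stays below 0, and the points of the other 6 genes fall on both sides of 0.

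A ratio of 2 genes within a library depends on its scaling only through the added pseudocount of 1 FPKM, which weighs most on low genes such as *Stim1*. Here 3 ratios were compared on log2(FPKM + 1) with two-sided exact permutation tests, for which 3 against 3 libraries cannot go below p = 0.10. *Itpr1* over *Atp2a2*, release channel over store pump, differed by 0.04 (exact p = 0.9). *Stim1* over *Orai1*, sensor over channel, differed by -0.20 (exact p = 0.6), and *Cacna1h* over *Trpm7* differed by -0.34 (exact p = 0.5). The adjusted p over the 3 exact tests was 0.9 for each, and none differed by more than the spread between libraries.

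The part of other cells in these values was not tested. The summed level of 13 granulosa and cumulus markers was 364 to 429 FPKM in Bnc1tr/tr and 200 to 330 FPKM in WT. *Serpine2* made up most of it, and the other 12 summed to 51.1 to 67.1 FPKM in Bnc1tr/tr and 23.5 to 42.8 FPKM in WT. *Inha* and *Gja1* had lower means in Bnc1tr/tr (0.693 against 3.42 FPKM and 0.503 against 1.32 FPKM), *Inha* without a call and *Gja1* below the minimum for testing. Of the 7 that were tested, 3 were higher (*Fshr*, 2.24, *Cyp11a1*, 1.61, and *Kitl*, 0.68 in log2 fold change) and none was lower. *Fshr* had a WT mean of 0.35 FPKM and passed the minimum of 1 FPKM only through its Bnc1tr/tr values. *Foxl2* and *Amhr2* were at 0 in 5 of the 6 libraries each. Beside this count and those that follow, 24.1% of all tested genes were higher and 7.68% were lower. The summed level of 12 immune markers was 65.3 to 151 FPKM in Bnc1tr/tr and 67.6 to 98.5 FPKM in WT, and of 7 tested *Laptm5* was higher. *C1qb* made up most of the WT sums, and the other 11 summed to 6.61 to 80.6 FPKM in Bnc1tr/tr and 2.83 to 4.23 FPKM in WT, higher in each Bnc1tr/tr library. For stroma, *Dcn* alone was tested and was higher, with sums of 5.91 to 9.76 FPKM against 1.40 to 2.09 FPKM, and for endothelium and blood *Pecam1* was lower among 3 tested, with sums of 5.44 to 14.7 FPKM against 10.2 to 11.7 FPKM. In Bnc1tr/tr replicate 3, *Lyz2*, *Tyrobp*, *Fcer1g*, *Cd52* and *Ptprc* were at 0. Of the other immune markers there, *Laptm5* (4.11 FPKM), *Cd3e* (0.67 FPKM), *C1qa* (0.61 FPKM) and *Adgre1* (0.13 FPKM) were above every WT library. *Cd68* (0.96 FPKM) and *C1qb* (58.64 FPKM) were below every WT library, and *Csf1r* (0.13 FPKM) was within the WT range. *Fshr* (5.37 FPKM) and *Dcn* (4.93 FPKM) were above every WT library, while *Inha* and *Gja1* were within the WT range. *Trpv3* (7.19 FPKM) and *Atp2b1* (54.33 FPKM) were also above every WT library.

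To place the 10 genes in their pathway, 124 other genes were taken from 6 lists by role. Of these, 117 were listed in the libraries and 67 were tested, of which 15 were higher, 11 were lower and 41 were not called. The median log2 fold change of the 67 was 0.07, against 0.15 for all tested genes, and 22.4% were higher, against 24.1% of all tested genes. Lower calls made up 16.4%, against 7.68% of all tested genes, and calls in either direction 38.8%, against 31.8%. With median-ratio scaling 25.4% of the 67 and 14.5% of all tested genes were lower, and with upper-quartile scaling the share of the 67 was also the larger. With quantile normalization the shares were close, 19.4% of the 67 and 17.1% of all tested genes. The size of the excess of lower calls thus depended on the scaling. These shares are descriptions, since the lists were chosen with earlier results known. None of the 26 called genes changed direction in any of the 15 alternatives. Of the 26, 16 were called in all 6 fits that left out a single library (12 higher and 4 lower), and 19 were called under all 4 other scalings.

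IP3 production and store release had 10 tested genes, of which 5 were higher (50% against 24.1% of all tested genes), 1 was lower (10% against 7.68%) and 4 were not called, with a median log2 fold change of 0.62. *Plcb4*, a phospholipase C that makes IP3, was at 2.93, 4.10 and 4.62 FPKM in Bnc1tr/tr and at 0.88, 1.34 and 1.49 FPKM in WT (log2 fold change 1.12, limma, adjusted p = 0.00282). *Gna11*, a G protein subunit that drives phospholipase C, rose by 1.07 and *Tmem38b*, a potassium channel of the endoplasmic reticulum that balances calcium release, by 1.08. *Plcb1* and *Gnaq*, named after their values were seen, rose by 0.96 and 0.92. *Tmem38a*, the relative of *Tmem38b*, was lower by the test (-0.68, adjusted p = 0.0193) and lost its call without WT replicate 1 or 2 or Bnc1tr/tr replicate 1 or 2.

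Calcium entry had 9 tested genes, of which 6 were higher (66.7% against 24.1% of all tested genes), with a median log2 fold change of 0.77. None was called lower, against 7.68% of all tested genes. At an unadjusted p under 0.05 by limma none was lower either, while 4525 of all 10560 tested genes passed in either direction. *Trpm6*, *Pkd2* and *Cacna1d* had WT means of 0.447, 0.597 and 0.87 FPKM. These 3 passed the minimum of 1 FPKM only through their Bnc1tr/tr values. *Trpm4*, a channel that opens on calcium and passes sodium, was at 9.66, 10.52 and 8.03 FPKM in Bnc1tr/tr and at 1.31, 1.66 and 1.06 FPKM in WT (log2 fold change 2.15, limma, adjusted p = 4.11e-05). *P2rx4*, a channel opened by ATP, was at 15, 13.47 and 8.39 FPKM in Bnc1tr/tr and at 3.44, 2.95 and 1.03 FPKM in WT (log2 fold change 1.98, limma, adjusted p = 0.00177). Its lowest Bnc1tr/tr library was replicate 3, and with only that library in the group the log2 fold change was 1.51. *Trpm6* and *Stim2* are given above. *Pkd2* and *Cacna1d*, named after their values were seen, had log2 fold changes of 0.77 and 0.56, and *Cacna1d* was called in 7 of the 15 alternatives. *Saraf*, a brake on store-operated entry, was at 144 FPKM in Bnc1tr/tr and 114 FPKM in WT on average and was not called (adjusted p = 0.314).

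Pumps and exchangers had 3 tested genes and none was called, against 31.8% of all tested genes. *Atp2b4*, given above, was below the minimum level and not among the 3. None passed at an unadjusted p under 0.05 by limma, against 4525 of all 10560 tested genes. *Atp2c1*, the calcium pump of the Golgi, had the highest level of these, with means of 98.1 FPKM in Bnc1tr/tr and 73.9 FPKM in WT (log2 fold change 0.43, limma, adjusted p = 0.145).

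Mitochondrial calcium uptake had 11 tested genes, of which 2 were lower (18.2% against 7.68% of all tested genes) and none was higher (against 24.1%), with a median log2 fold change of -0.07. At an unadjusted p under 0.05 by limma, 4 were lower and 3 higher, while 4525 of all 10560 tested genes passed in either direction. Both called genes encode gatekeepers of the calcium uniporter. *Micu3* fell from 5.23 ± 0.530 to 2.32 ± 0.347 FPKM (SD, n = 3, log2 fold change -0.91, limma, adjusted p = 0.00337). *Micu2* fell from 19.9 ± 1.79 to 12.95 ± 1.70 FPKM (SD, n = 3, -0.59, limma, adjusted p = 0.0272) and lost its call in 4 of the 6 fits without a single library. The pore gene *Mcu* had means of 37.1 FPKM in Bnc1tr/tr and 26.4 FPKM in WT and was not called (adjusted p = 0.0567).

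Calcium binding in the endoplasmic reticulum had 15 tested genes, of which 6 were lower (40% against 7.68% of all tested genes), 2 were higher (13.3% against 24.1%) and 7 were not called, with a median log2 fold change of -0.35. *Calr3*, a germ cell calreticulin, was at 24.26, 28.30 and 41.44 FPKM in Bnc1tr/tr and at 78.11, 93.42 and 71.71 FPKM in WT, the largest decrease in these lists (-1.37, limma, adjusted p = 0.00181). *Canx*, the calnexin gene, named after its values were seen, was at 45.58, 42.24 and 53.33 FPKM in Bnc1tr/tr and at 79.86, 73.27 and 93.82 FPKM in WT (-0.79, adjusted p = 0.00880). *Calr3* and *Canx* were called in all fits without a single library. *Hspa5* (-0.89) and *Pdia3* (-0.80), chaperones of the endoplasmic reticulum, fell as well, and each lost its call without WT replicate 1 or 2 or Bnc1tr/tr replicate 1 or 2. *Clgn*, calmegin, is a further chaperone of the calnexin family known from the testis. It was at 2.93, 1.53 and 2.41 FPKM in Bnc1tr/tr and at 0.39, 0.27 and 0.28 FPKM in WT (1.30, limma, adjusted p = 0.00121). Its WT mean was 0.313 FPKM, and it passed the minimum of 1 FPKM only through its Bnc1tr/tr values. *Nucb2* rose by 0.94 and lost its call without Bnc1tr/tr replicate 1 or 2 and with quantile normalization. *Calr*, the general calreticulin, had means of 106 FPKM in Bnc1tr/tr and 91.7 FPKM in WT and was not called (adjusted p = 0.440).

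Calcium decoding and egg activation had 19 tested genes, of which 2 were higher (10.5% against 24.1% of all tested genes), 2 were lower (10.5% against 7.68%) and 15 were not called, with a median log2 fold change of -0.02. *Fbxo43*, the EMI2 gene that holds the egg at metaphase, rose by 0.67 and lost its call in 5 of the 6 fits without a single library. *Ppp3cc*, a catalytic subunit of calcineurin, fell from 10.4 ± 1.05 to 5.42 ± 0.348 FPKM (SD, n = 3, -0.82, limma, adjusted p = 0.00452). *Zp2*, the egg coat protein that is cleaved at egg activation, fell by 0.74 and lost its call in 5 of the 6 fits without a single library.

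**Figure D5:**
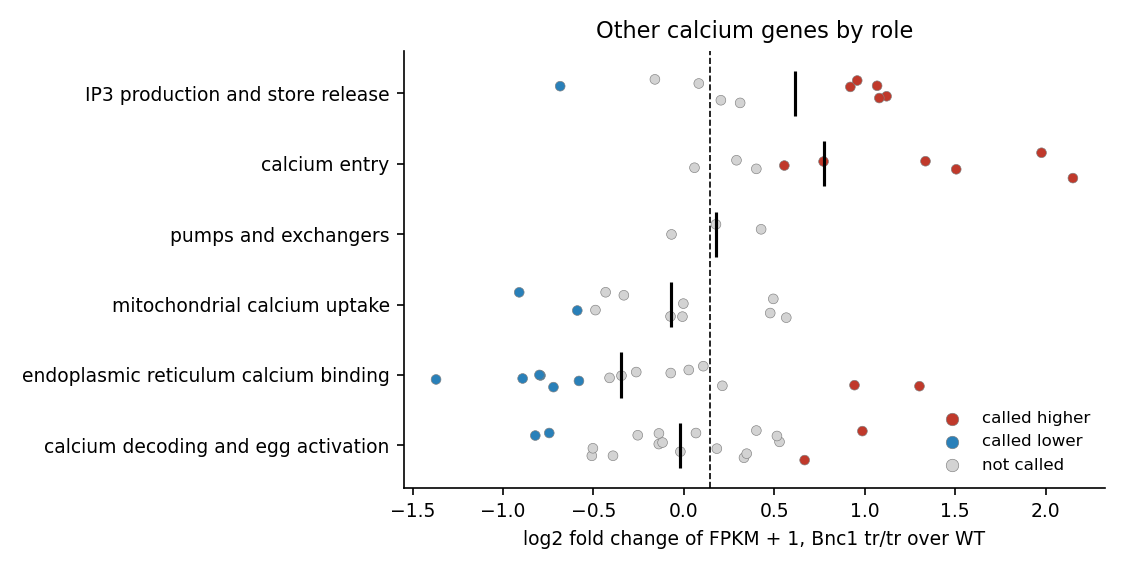
Log2 fold change of FPKM + 1, Bnc1tr/tr over WT, of the 67 tested genes of 6 lists by role. Points are genes (red called higher, blue called lower, grey not called), black bars are list medians and the dashed line is the median of all tested genes (0.15). All 6 calls for calcium entry are higher and both calls for mitochondrial uptake are lower, and the medians run from -0.35 for calcium binding in the endoplasmic reticulum to 0.77 for calcium entry.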

How the data were processed

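The libraries were 3 Bnc1tr/tr and 3 WT GV oocyte libraries, grouped by the genotype in the labels. The authors deposited 1 table of FPKM per library, rounded to 2 decimals, for the same 17577 genes. The submitters' processing notes name HISAT2 2.0.4, Bowtie2 2.2.5, RSEM 1.2.12 and the build GRCm38.p6, without their roles. FPKM is scaled to all fragments, so abundant transcripts move all other values.

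Groups were compared with limma 3.58.1 (R 4.3.3) on log2(FPKM + 1). The fit took the 10560 genes whose mean over the 6 libraries reached 1 FPKM. A gene near 0 in 1 group could therefore enter through its values in the other group alone. A call needed an adjusted p under 0.05 (Benjamini-Hochberg, over all tested genes) and an absolute log2 fold change over 0.5. Ratios within libraries were compared with exact permutation tests. The other genes named were, from each list, up to 3 called genes with the largest increase and up to 3 with the largest decrease, and the families of the 10 genes, with exceptions marked. The 10 genes and the lists were chosen with earlier results of these data known. *Plch2*, *Atp2a1*, *Slc8a2*, *Slc8b1*, *Sln*, *Pln* and *Casq1* were not analysed here, and values of some genes counted in the lists are not reported here.

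Symbols that a spreadsheet had turned into dates (25) were restored by NCBI Gene ID, and 17470 IDs were found in the RefSeq table. Depth was estimated from the spacing of low FPKM values, was used in no test, and depends on annotated transcript lengths. Counts on amplified cDNA without molecular identifiers cover counting error only. No more than 4.49% of the 31-base words of any of the 10 genes occurred in other genes (GENCODE M21), and no overlapping gene was listed in the tables. Whether counting used strand is not given in the sources used here. Figures were drawn with matplotlib 3.10.9.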

Additional observations from a re-analysis of the deposited data

How the results depend on the processing

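Each result was recomputed under 15 alternatives, and the counts also without the fold threshold (3392 genes and 2 of the 10 genes). Of the 15, the scaling to equal totals and the fit with Bnc1tr/tr replicate 3 alone in its group were chosen after seeing the data. *Trpv3* was called in all 15 and *Atp2b1* in 14, and 2 of the 10 genes were called in every alternative except the fit with Bnc1tr/tr replicate 3 alone and quantile normalization, which called 3 (with *Cacna1h*). With Bnc1tr/tr replicate 3 alone, which assumes that it varies like the WT libraries, 880 genes were called (770 higher, 110 lower), 1 of the 10 genes (*Trpv3*, with 0.998 and an adjusted p of 0.0854 for *Atp2b1* by limma), and 5 genes of the pathway lists, 5 of them higher and 0 lower, and *Itpr2* was at -0.18. Genes called lower were 811 as reported, 1794 after upper-quartile scaling, 1535 with median-ratio scaling and 1811 with quantile normalization, which also called 1670 higher. Pathway genes called lower were 11 as reported, 7 with a pseudocount of 0.1, 18 after upper-quartile and 17 after median-ratio scaling. With quantile normalization 13 pathway genes were called lower. The log2 fold changes that turned under upper-quartile scaling were -0.084 for *Itpr1*, -0.25 for *Itpr2*, -0.15 for *Trpm7*, -0.16 for *Atp2a2*, -0.057 for *Orai1* and -0.15 for *Camk2g*. Under median-ratio scaling they were -0.039, -0.20, -0.11, -0.11, -0.0077 and -0.10 for the same genes in the same order. After quantile normalization they were -0.24 for *Itpr1*, -0.26 for *Itpr2*, -0.28 for *Trpm7*, -0.022 for *Atp2a2* and -0.10 for *Orai1*, and *Cacna1h* was at -0.69 and called. Under these 3 scalings the median over all tested genes was below 0.

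Leaving out each library in turn gave 2323 to 3539 genes called and 418 to 1041 called lower, with 16 to 31 pathway genes called and 4 to 14 called lower. The log2 fold change ran from -0.092 to 0.11 for *Itpr2*, from -0.11 to 0.22 for *Trpm7*, from -0.14 to 0.39 for *Orai1* and from -0.0055 to 0.23 for *Camk2g*. The replicate block, with the replicate number of the titles as a term, called 3733 genes and the same number of the 10 genes (2). Deviations of same-numbered libraries correlated at 0.28, -0.03 and 0.12 with a mean of -0.06 over the 6 other pairs. These 3 values are too few to show whether same-numbered libraries were paired. The methods say that littermates were compared, and the labels do not say which libraries shared a litter. Depth limits *Stim1* most, with at most 26 estimated fragments per library, and 3 libraries a group leave intervals of the log2 fold change that reach 0.87 for *Orai1*.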

Other observations

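Beyond the lists by role, families of calcium-binding proteins were looked up by symbol, and they were chosen after their values were seen. The annexins bind membranes when calcium rises. Of 10 annexin genes listed 7 were tested, and 5 were higher and 1 was lower in Bnc1tr/tr. *Anxa5* was at 95.48, 107.42 and 81.33 FPKM in Bnc1tr/tr and at 25.29, 22.38 and 31.45 FPKM in WT (log2 fold change 1.81, limma, adjusted p = 0.00016). *Anxa3* was higher by 2.14 and *Anxa4* by 1.76, both from WT means under 3 FPKM. *Anxa6* went the other way, with 7.02, 5.55 and 4.53 FPKM in Bnc1tr/tr and 13.32, 14.12 and 12.82 FPKM in WT (-1.12, limma, adjusted p = 0.00182).

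The S100 proteins are small calcium sensors. Of 10 genes listed 5 were tested, and 4 were higher and none was lower. *S100a16* was at 53.93, 35.37 and 35.96 FPKM in Bnc1tr/tr and at 4.82, 6.24 and 5.25 FPKM in WT (2.71, limma, adjusted p = 2.63e-05). *S100a10*, whose protein pairs with that of *Anxa2*, was at 18.44, 10.18 and 14.31 FPKM in Bnc1tr/tr and at 0.47, 0.41 and 0.00 FPKM in WT. *Anxa2* itself was at 89.89, 101.40 and 71.16 FPKM in Bnc1tr/tr and at 43.75, 34.50 and 55.18 FPKM in WT (0.97, limma, adjusted p = 0.00965). The calpains, proteases that calcium activates, had 2 of 5 tested genes higher, and the synaptotagmins, calcium sensors of vesicle fusion, had 3 of 8 higher and 1 lower. Beside these counts, 24.1% of all tested genes were higher and 7.68% were lower. Of the genes called higher here, *Anxa1*, *Anxa3*, *S100z*, *S100a10*, *Capn9*, *Capn11*, *Syt2*, *Syt13* and *Syt14* had WT means below 1 FPKM. They passed the minimum only through their Bnc1tr/tr values.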
